A study of Mus musculus with 6 samples.

Results

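The 10 genes described here encode the transcription factors that drive and mark the excitatory neuron lineage of the dorsal telencephalon, or pallium. They are the basic helix-loop-helix (bHLH) genes Neurog1, Neurog2, Neurod1, Neurod2, Neurod4, Neurod6, Nhlh1 and Nhlh2 and the T-box genes Eomes and Tbr1. They were taken by gene symbol from a table of read counts for 55416 mouse genes, in which each symbol had 1 row, and all 10 were among the 23628 genes with enough reads to test. RNA came from the ganglionic eminences, the ventral forebrain swellings that give rise to striatal neurons and cortical interneurons, of mouse embryos at stage E13.5 (embryonic days after mating). There were 3 wild-type (WT) libraries, from littermate controls, and 3 double knockout (DKO) libraries, from embryos that lacked the homeodomain transcription factor genes Dlx1 and Dlx2. The labels describe no other allele or treatment, and do not describe the knockout allele, the strain, or whether a library came from 1 embryo or several. If tissue was pooled or shared, p-values measure only the spread between these libraries.

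In pallial progenitors the proneural factors Neurog1 and Neurog2 commit cells to an excitatory, glutamate-releasing fate. Eomes follows in intermediate progenitors, Neurod1 and Neurod4 accompany the passage to neurons, and Neurod2, Neurod6 and Tbr1 are expressed in the postmitotic neurons. A level of these 10 genes in dissected ganglionic eminence is set against a background of inhibitory neuron precursors. Proneural bHLH proteins bind DNA at E-boxes as partners of the E proteins, which the Id proteins can sequester.

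Because most of these factors bind E-boxes, the sequence just upstream of each member was searched for such words. Sequence farther from the genes was not read. The RefSeq promoter table (build GRCm38.p6) held all 10 genes, in 11 windows of 250 bases before a gene start, and Neurod4 had 2 windows that overlap. For Eomes, Neurod4, Neurog1 and Nhlh1 the sequence just after the start did not lie whole in a GENCODE M21 transcript of the gene. Those starts, and the matches placed by them, are less certain. The general E-box CANNTG, searched on both strands, occurred in 6 of the 11 windows and in 66.2% of the 32807 windows of all genes. The form CAGATG, a subset of CANNTG, occurred in 3 of the 11, those of Neurod2, Nhlh1 and Nhlh2, against 14.5% of all windows. The form CAGCTG, another subset, occurred in 0 of the 11 and in 13.01% of all windows. The homeodomain core TAATTA occurred in 2 of the 11, those of Neurog1 and Tbr1, against 4.85%. A match is a run of letters and not a measured binding site, and the counts do not enter any comparison of expression.

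A few windows are shown, for the gene with the clearest change, its nearest relative in expression, and the neuronal T-box gene. In the first 2 the capitals mark E-boxes, and in the Tbr1 window they mark TAATTA. The Neurod2 window lies at chr11:98329646-98329895 on the minus strand, the Neurod6 window at chr6:55681264-55681513 on the minus strand, and the Tbr1 window at chr2:61804203-61804452 on the plus strand. All 3 are printed 5′ to 3′ along the gene and end at the base before the gene start.
Neurod2: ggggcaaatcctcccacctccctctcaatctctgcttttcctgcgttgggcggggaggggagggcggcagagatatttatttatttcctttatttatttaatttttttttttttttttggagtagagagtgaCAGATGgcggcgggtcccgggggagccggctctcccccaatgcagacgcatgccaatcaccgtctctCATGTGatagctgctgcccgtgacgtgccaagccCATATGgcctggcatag
Neurod6: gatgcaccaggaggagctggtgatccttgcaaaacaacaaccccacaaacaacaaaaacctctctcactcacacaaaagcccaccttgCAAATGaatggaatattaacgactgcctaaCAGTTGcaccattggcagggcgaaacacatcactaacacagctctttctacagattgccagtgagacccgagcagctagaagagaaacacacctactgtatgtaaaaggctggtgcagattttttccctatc
Tbr1: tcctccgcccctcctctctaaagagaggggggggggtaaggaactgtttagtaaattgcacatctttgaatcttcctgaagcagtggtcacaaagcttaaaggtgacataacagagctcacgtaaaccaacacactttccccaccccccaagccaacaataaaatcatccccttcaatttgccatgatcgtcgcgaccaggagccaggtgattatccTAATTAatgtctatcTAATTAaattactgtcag
The E-boxes of Neurod2 began 118, 51 and 17 bases upstream of its start, and the farthest was the CAGATG. Those of Neurod6 began 162 and 132 bases upstream. The 2 TAATTA words of Tbr1 began 33 and 18 bases upstream, beside a single E-box, CAGGTG, at 46 bases.

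Total counts ranged from 56618090 to 70114173 per library. Dlx1 was at 434.0 to 445.7 CPM (read counts scaled to library size, with TMM factors that balance composition) in the wild type and 74.9 to 94.0 CPM in the double knockout, and Dlx2 at 281.7 to 313.3 and 7.50 to 11.0 CPM, so every library matched its label. All 7 ganglionic eminence markers read here were detected, and all were called. Slc32a1, Gad1, Gad2 and Lhx6, genes of inhibitory neurons, fell with log2 fold changes of -2.85, -1.47, -1.38 and -0.83, and the homeobox genes Gsx2, Isl1 and Nkx2-1 rose by 0.64, 0.62 and 0.59. Their part in the differences of the 10 genes was not tested. Exons of Slc32a1 overlap those of the opposite-strand gene Gm14205 by 697 bases in GENCODE M21. Those of Lhx6 overlap Gm27953 on the same strand by 104 bases, so the counts of Slc32a1 and Lhx6 are uncertain to that extent. In edgeR's quasi-likelihood test 634 genes, or 2.68% of those tested, differed at a Benjamini-Hochberg adjusted p under 0.05, the rule for a gene being called here. Of all tested genes 1.34% were called lower and 1.34% called higher. With scaling by total count 60.4% of the called genes were higher in place of 50%, and that scaling moved the median log2 fold change of all genes from -0.0016 to 0.027. Double knockout replicate 3 stood apart from the others. Among 16451 genes averaging 1 CPM or more it held the highest or the lowest value of the 6 libraries for 51.3%, against 22.8% to 38.3% for each other library. Y-linked transcripts were at 206.5 CPM in wild-type replicate 1 and at 213.9 and 211.6 CPM in double knockout replicates 2 and 3, and at no more than 0.168 CPM in the other libraries, so the sexes were not balanced between the genotypes. With a covariate for them 358 genes were called, and Neurod2 remained called (log2 fold change -0.55, edgeR adjusted p 0.00735).

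**Figure D1:**
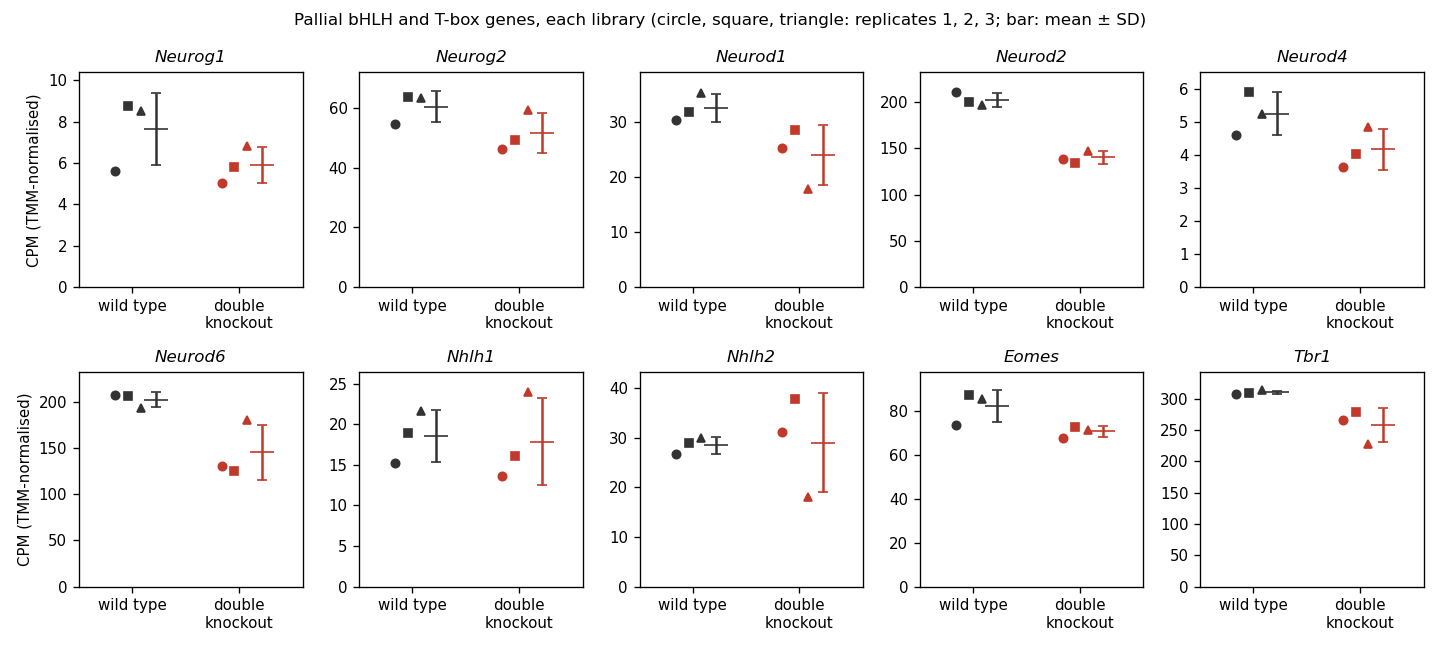
CPM (vertical axes, from 0) of the 10 genes in each library, by genotype, with the mean and SD over 3 libraries. Neurod2 is separated by a wide gap, at 196.4 CPM or more in the wild type and 147.1 CPM or less in the double knockout. For Nhlh1 and Nhlh2 the double knockout libraries reach both below and above the wild-type range.

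Loss of Dlx1 and Dlx2 went with a lower level of a single member by the test, the neuronal factor Neurod2, at 69.2% of its wild-type mean. Among all tested genes 1.34% were called lower. The other 9 members were not called. Their log2 fold changes were negative for 8 and positive for Nhlh2 alone. The median over the 10 was -0.30, where the median of all tested genes was -0.0016. The 6 pan-neuronal markers read below (Tubb3, Dcx, Stmn2, Map2, Elavl3 and Elavl4) were all negative as well, with a median of -0.27. Their part in the fall of the members was not tested. In 5 members, Neurod1, Neurod2, Neurod6, Eomes and Tbr1, every double knockout library lay below every wild-type library, a pattern shared by 10.2% of all tested genes. The unadjusted p was under 0.05 with a negative change for 6 members, against 6.81% of all tested genes. In bulk tissue, fewer cells of a type and less RNA per cell cannot be told apart. None was called higher.

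Neurog1 and Neurog2, the proneural factors at the head of the lineage, were lower on average with overlapping groups. Neurog2 was at 54.6, 63.5 and 63.2 CPM in wild-type replicates 1 to 3 and at 46.2, 49.3 and 59.2 CPM in double knockout replicates 1 to 3. Double knockout replicate 3 lay within the wild-type range and the other two below it. The fitted change on the log2 scale was -0.23 (SE 0.0997), with a 95% interval from -0.46 to -0.00064 and an adjusted p of 0.373 in edgeR. Neurog1 was at 5.63, 8.77 and 8.53 CPM in the wild type and 5.05, 5.81 and 6.80 CPM in the double knockout. Wild-type replicate 1 was as low as the double knockout libraries. Its fitted change on the log2 scale was -0.38 (SE 0.185), with an interval from -0.80 to 0.046 and an edgeR adjusted p of 0.442.

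Eomes, the T-box factor of intermediate progenitors, was at 73.7, 87.3 and 85.2 CPM in the wild type and 67.7, 72.6 and 71.4 CPM in the double knockout. The groups did not overlap, but only 1.15 CPM separated wild-type replicate 1 from double knockout replicate 2. The fitted change on the log2 scale was -0.22 (SE 0.0694), with an interval from -0.38 to -0.060 and an edgeR adjusted p of 0.191. Neurod4, which acts in progenitors leaving the cycle, was at 4.59, 5.90 and 5.24 CPM in the wild type and 3.64, 4.02 and 4.84 CPM in the double knockout. The groups overlapped through double knockout replicate 3, and the log2 fold change was -0.33 (SE 0.15; edgeR adjusted p 0.397). Exons of Eomes overlap those of the opposite-strand gene Gm33460 by 118 bases in GENCODE M21, so its count is uncertain to that extent.

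Neurod1, which promotes the step from progenitor to neuron, was at 30.3, 31.9 and 35.2 CPM in the wild type and 25.4, 28.5 and 17.9 CPM in the double knockout. All double knockout libraries were below the wild type, and replicate 3 was much the lowest. The fitted change on the log2 scale was -0.44 (SE 0.153), with an interval from -0.79 to -0.092 and an edgeR adjusted p of 0.238. Without double knockout replicate 3 it was -0.26. Neurod1 exons overlap Gm26755 on the opposite strand by 154 bases and Cerkl on the same strand by 201 bases in that annotation, so its count is uncertain too.

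Neurod2, a factor of differentiated excitatory neurons, showed the only called change. It was at 210.8, 200.0 and 196.4 CPM in the wild type and 138.8, 134.0 and 147.1 CPM in the double knockout. The lowest wild-type library stood 49.3 CPM above the highest double knockout library. The fitted change on the log2 scale was -0.53 (SE 0.0526), with an interval from -0.65 to -0.41 and an adjusted p of 0.00127 by the edgeR test. It remained called in all 14 alternative settings, where the log2 fold change ranged from -0.56 to -0.50.

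Neurod6, a related factor of the same neurons, was at 208.2, 207.1 and 193.8 CPM in the wild type and 130.9, 125.3 and 180.4 CPM in the double knockout. Double knockout replicate 3 lay near the wild type, while replicates 1 and 2 were close to each other and far below it. The fitted change on the log2 scale was -0.48 (SE 0.124), with an interval from -0.76 to -0.20 and an edgeR adjusted p of 0.101. Without double knockout replicate 3 it was -0.66 with an edgeR adjusted p of 3.54e-04. DESeq2 called it with all libraries, at an adjusted p of 0.00373, as did edgeR without a filter on low counts, at 0.0161. The ratio of Neurod6 to Neurod2 was 0.987, 1.04 and 0.986 in the wild type and 0.943, 0.935 and 1.23 in the double knockout, with a two-sided exact permutation p of 1.0.

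Tbr1, the T-box factor of the earliest-born deep neurons, had the highest count of the 10 and the most even wild-type levels. It was at 307.9, 309.4 and 313.3 CPM in the wild type, a coefficient of variation of 0.897%, and at 266.1, 279.3 and 227.2 CPM in the double knockout. The groups did not overlap, and double knockout replicate 3 was again the lowest. The fitted change on the log2 scale was -0.27 (SE 0.0759), with an interval from -0.44 to -0.095 and an edgeR adjusted p of 0.136. DESeq2 gave an adjusted p of 0.0411, the only setting of 14 to call it. In DESeq2 3 members, Neurod2, Neurod6 and Tbr1, were called lower, against 2.62% of all genes it tested.

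Nhlh1 and Nhlh2, a pair of bHLH genes switched on in newborn neurons, gave no direction. Nhlh1 was at 15.2, 18.9 and 21.6 CPM in the wild type and 13.6, 16.1 and 23.9 CPM in the double knockout. Double knockout replicates 1 and 3 held its lowest and highest values. Nhlh2 was at 26.7, 28.8 and 30.0 CPM in the wild type and 31.2, 37.7 and 18.1 CPM in the double knockout. Here replicate 3 was the lowest of the 6 libraries and replicates 1 and 2 were the highest. The log2 fold changes were -0.05 for Nhlh1, with an interval from -0.52 to 0.42, and 0.03 for Nhlh2, with an interval from -0.48 to 0.53. Without double knockout replicate 3 they were -0.32 and 0.28, and neither was called.

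**Figure D2:**
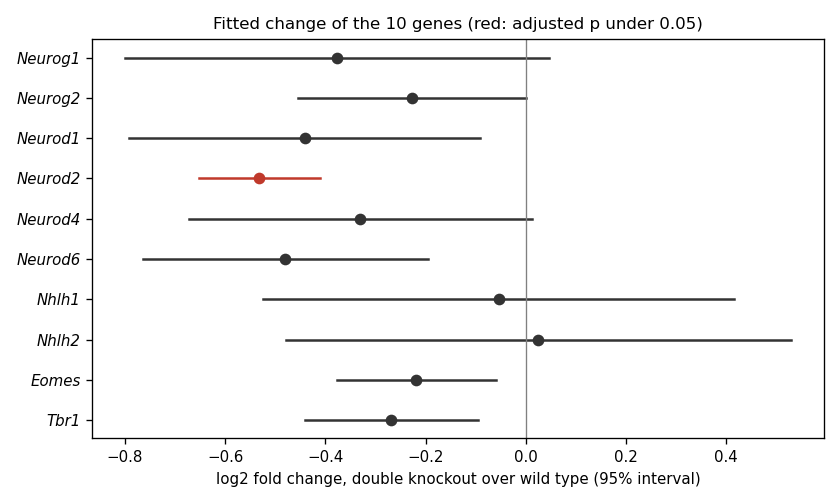
Fitted log2 fold change of the double knockout over the wild type (horizontal axis) with its 95% interval for each of the 10 genes. The interval of Neurod2 runs from -0.65 to -0.41, and those of Neurod1, Neurod6, Eomes, Tbr1 and Neurog2 also lie below 0 without passing the adjusted threshold.

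Levels of different genes were compared as CPM per kilobase of exon, with exon lengths from GENCODE M21. In the wild type Neurod6 stood first at 94.4 ± 3.73 CPM per kilobase, followed by Neurod2 at 64.4 ± 2.38 and Tbr1 at 56.5 ± 0.507 (SD, n = 3). Neurog2 at 27.1 ± 2.27 and Eomes at 19.8 ± 1.76 CPM per kilobase came next, then Neurod1 at 11.9 ± 0.926 and Nhlh1 at 7.54 ± 1.29. Nhlh2 at 5.26 ± 0.312 and Neurog1 at 4.53 ± 1.04 CPM per kilobase were the only neighbours in this order whose 3 libraries overlapped, and Neurod4 was last at 1.57 ± 0.195. The 3 members of differentiated excitatory neurons, Neurod6, Neurod2 and Tbr1, were thus the highest per length. In the double knockout the order of means was the same except that Tbr1, at 46.9 ± 4.94 CPM per kilobase, stood above Neurod2, at 44.6 ± 2.11. That exchange did not hold in replicate 3. The ratio of Tbr1 to Neurod2 in CPM was 1.92, 2.08 and 1.54 in double knockout replicates 1 to 3, and 1.46 to 1.595 in the wild type. Its two-sided exact permutation p was 0.3.

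The members did not vary together among the double knockout libraries. Relative to the mean of replicates 1 and 2, double knockout replicate 3 was lower by log2 differences of -0.92 for Nhlh2, -0.59 for Neurod1 and -0.26 for Tbr1. It was higher by 0.69 for Nhlh1, 0.49 for Neurod6, 0.34 for Neurod4, 0.33 for Neurog1 and 0.31 for Neurog2. Neurod2 and Eomes differed little, by 0.11 and 0.026. Of the 10 members, 3 were lowest and 1 was highest of the 6 libraries in replicate 3. Among all genes averaging 1 CPM or more these shares were 24.1% and 27.3%. Genes of Cajal-Retzius cells, the early Reelin-secreting neurons of the cortical surface, went the way of Nhlh2, Neurod1 and Tbr1. All 8 genes of that list were lower in replicate 3 than the mean of replicates 1 and 2, with a median log2 difference of -0.68, and 5 of them, Reln, Lhx5, Ebf2, Calb2 and Ndnf, were lowest there of all 6 libraries. Of all genes averaging 1 CPM or more 24.1% were lowest in replicate 3. So were 4 of 10 other genes of excitatory neurons, Slc17a6, Bhlhe22, Cux2 and Zfpm2, where the median log2 difference was -0.071. Reln, for example, was at 295.9 and 347.6 CPM in double knockout replicates 1 and 2 and 212.1 CPM in replicate 3, against 247.3 to 292.5 CPM in the wild type. The summed level of 6 pan-neuronal markers was 5500 and 5370 CPM in double knockout replicates 1 and 2 and 4794 CPM in replicate 3. That of 6 markers of dividing progenitors was 2849, 2753 and 3460 CPM in double knockout replicates 1 to 3. Their part in the pattern was not tested.

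**Figure D3:**
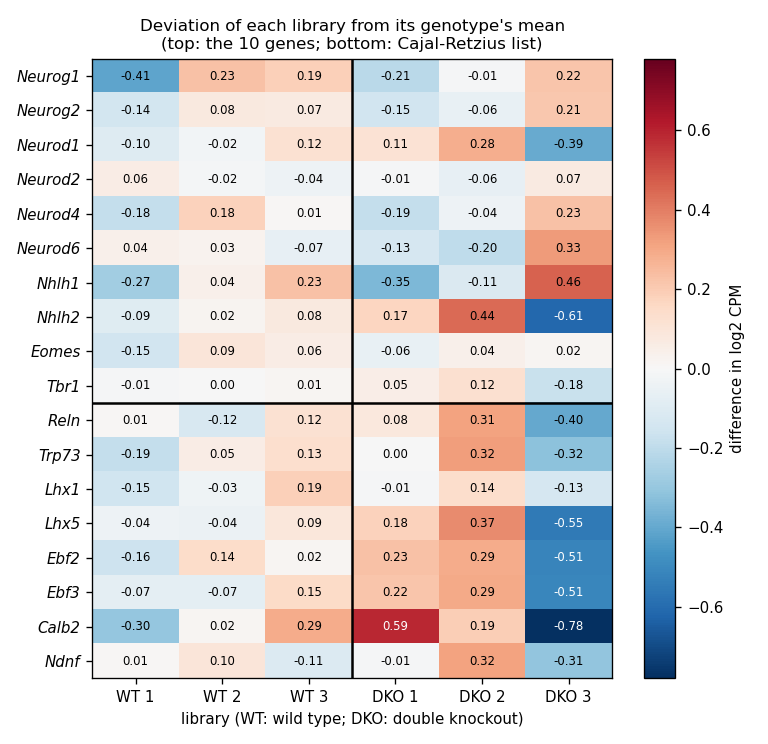
Difference in log2 CPM of each library from the mean of its own genotype (colour and printed value), for the 10 genes above the line and the 8 genes of the Cajal-Retzius list below it. In the DKO 3 column Nhlh2, Neurod1, Tbr1 and all Cajal-Retzius genes are negative, and Nhlh1, Neurod6, Neurod4, Neurog1 and Neurog2 are positive.

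Since these are pallial genes in a ventral dissection, markers of cortex and of other tissues were read beside them. Of 3 cortical genes outside the 10 read as markers, Emx1 and Slc17a7 were lower in every double knockout library than in every wild-type library. Emx1 was at 14.34, 16.02 and 14.70 CPM in the wild type and 11.97, 11.07 and 12.67 CPM in the double knockout. Fezf2, a factor of deep-layer neurons, was at 34.0, 26.4 and 34.0 CPM in the wild type and 24.5, 27.8 and 26.9 CPM in the double knockout, so its groups overlapped. None of the 3 was called and none was at 0. Other pallial genes went the other way. Tle4, an excitatory neuron gene, was higher in every double knockout library than in every wild-type library. Its log2 fold change was 0.23, and it was not called. Lhx2 and Rorb were called higher, as given below. In the lists read below, 3 of 7 pallial progenitor genes and 4 of 10 excitatory neuron genes had positive log2 fold changes. The 6 pan-neuronal markers summed to 5850 to 6339 CPM in wild-type libraries and 4794 to 5500 CPM in knockout libraries, without overlap, and 1 of them, Elavl3, was called lower. The ratio of Neurod2 to that sum, per 100 CPM, was 3.33, 3.42 and 3.20 in the wild type and 2.52, 2.50 and 3.07 in the double knockout, with a two-sided exact permutation p of 0.1, the smallest that 3 against 3 libraries can give. It was 1 of 4 ratios chosen after values were seen, and the Benjamini-Hochberg adjusted p over them was 0.2. Another of the 4, Neurod2 to Neurog2, was 3.86, 3.15 and 3.11 in the wild type and 3.01, 2.72 and 2.48 in the double knockout. Its two-sided exact permutation p was also 0.1, and 0.2 after adjustment. The 5 diencephalon markers summed to 69.3 to 79.9 CPM in the wild type and 88.3 to 117.5 CPM in the double knockout, with none called. Blood, microglia, endothelium and meninges lists overlapped between the genotypes and had no called gene. Choroid plexus markers summed to 27.1 CPM in wild-type replicate 1 and to at most 0.478 CPM elsewhere, and without that library the log2 fold change of Neurod2 was -0.50 (edgeR adjusted p 0.00916).

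Around the members, 49 other genes of the pathway in 7 lists were read in the same fit, and 46 had enough reads to test. In all 14 were called, 12 higher and 2 lower, where 2.68% of all tested genes were called and 1.34% in each direction. Among 10 genes commonly placed downstream of proneural factors, 6 rose and 1 fell, with a median log2 fold change of 0.64 beside -0.0016 for all tested genes. Those that rose were the Notch ligand genes Dll1 and Dll3, Hes6, Gadd45g, Btg2, which marks neurogenic divisions, and Insm1. Btg2 rose from 72.7 ± 4.17 to 137.8 ± 10.3 CPM (SD, n = 3; log2 fold change 0.92, SE 0.0674) and Gadd45g from 24.1 ± 2.72 to 47.7 ± 6.33 CPM (0.98, SE 0.112). Hes6, Dll3, Dll1 and Insm1 had log2 fold changes of 0.73, 0.79, 0.71 and 0.57. Insm1 lost its call in 4 of 14 settings, its edgeR adjusted p reaching 0.0799, and 1 of them was the Y-linked covariate, at 0.0693. The 6 markers of dividing progenitors, none of them called, all had positive log2 fold changes, with a median of 0.26. They summed to 2352, 2757 and 2671 CPM in the wild type, and the groups overlapped through double knockout replicate 2 at 2753 CPM. Their part in the rise of these genes was not tested. Cbfa2t3, a transcriptional corepressor gene, fell from 96.1 ± 4.40 to 68.0 ± 2.47 CPM (-0.50, SE 0.0527). Dll1 and Cbfa2t3 have opposite-strand exon overlaps in GENCODE M21, so their counts are uncertain.

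Of 7 pallial progenitor genes only Lhx2 was called, rising from 123.1 ± 16.2 to 189.1 ± 9.82 CPM. Pax6, an activator of Neurog2, was at 73.8 ± 7.11 and 72.5 ± 3.71 CPM, a log2 fold change of -0.03 (SE 0.0752). Emx1, the cortical homeobox gene, had -0.34 (SE 0.0883, edgeR adjusted p 0.108). Emx2, which an opposite-strand gene overlaps, had 0.19 (SE 0.133, edgeR adjusted p 0.635). The median over the 7 was -0.027. Of 10 genes of excitatory neurons, 1 fell and 1 rose, and their median log2 fold change was -0.18. Cux2, an upper-layer and subventricular zone gene, fell from 126.4 ± 11.1 to 90.9 ± 4.75 CPM (-0.48, SE 0.0706), and Rorb rose from 51.5 ± 3.21 to 78.0 ± 3.45 CPM (0.60, SE 0.0617). The vesicular glutamate transporter genes were not called. Slc17a7 was at 25.0, 22.7 and 19.5 CPM in the wild type and 13.9, 18.8 and 15.4 CPM in the double knockout, without overlap (log2 fold change -0.48, SE 0.131; edgeR adjusted p 0.116). Slc17a6 was at 58.6, 60.4 and 62.1 CPM in the wild type and 71.4, 75.0 and 42.3 CPM in the double knockout, where replicate 3 was again the lowest of all. Its log2 fold change was 0.059 (SE 0.181; edgeR adjusted p 0.937).

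All 8 Cajal-Retzius genes had positive log2 fold changes, and 2 were called. Lhx1 rose from 6.44 ± 0.778 to 10.7 ± 0.992 CPM (0.73, SE 0.12) and Ebf3 from 21.6 ± 1.99 to 42.5 ± 11.7 CPM (0.98, SE 0.188). Ebf3 lost its call in 8 of 14 settings, the Y-linked covariate among them, its edgeR adjusted p reaching 0.133, and Lhx1 in 4, reaching 0.0774. An opposite-strand gene overlaps Ebf3. Neither the E protein partners Tcf3, Tcf4 and Tcf12 nor the inhibitors Id1 to Id4 were called, with median log2 fold changes of 0.12 and 0.15. Of the other proneural and related bHLH genes, Olig1 and Olig2, factors of ventral progenitors and the oligodendrocyte lineage, rose with log2 fold changes of 1.13 and 0.80. Olig2 lost its call in 2 of 14 settings, its edgeR adjusted p reaching 0.0523, and Olig1 is overlapped by an opposite-strand gene. Atoh1, Neurog3 and Ptf1a, proneural factors of the hindbrain, pancreas and spinal cord among other sites, had at most 10 reads in a library and were not tested.

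**Figure D4:**
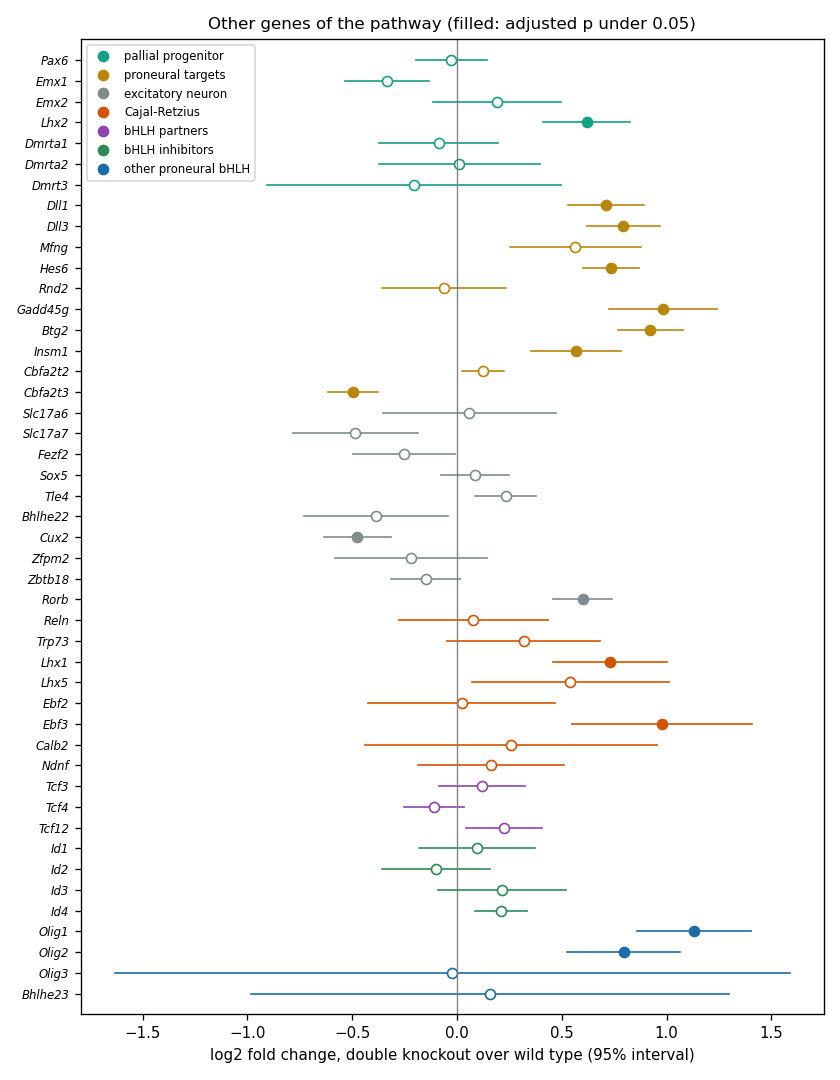
Log2 fold change of the double knockout over the wild type with its 95% interval for the 46 tested genes of the 7 lists, coloured by list. Filled points, 14 in all, passed an adjusted p under 0.05, and 6 of the 12 that rose were in the list of genes downstream of proneural factors.

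The 5 genes whose log2 CPM over the 6 libraries was most like the mean of the 10 members were ranked among 16441 others averaging 1 CPM or more. They were Gm43039, Ndst3, Plekha8, Pole4 and Setd3, with Pearson's r of 0.993, 0.992, 0.989, 0.989 and 0.986. The points are 6 libraries that share their normalisation and genotype contrast, and r is given only as the measure of likeness. None of the 5 was called, and their log2 fold changes ran from -0.66 for Gm43039 to -0.07 for Setd3. No pallial gene of the lists was among them.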

How the data were processed

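The authors deposited whole-number read counts per gene, 1 column per library, not normalised. Per the submitters' processing notes, reads were counted with featureCounts on GRCm39; the aligner, annotation release and strand setting are not given in the sources used here. Per the labels' protocols, libraries came from a stranded, ribosomal RNA-depleting total RNA kit. Groups were taken from sample titles.

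Genes were filtered with filterByExpr (minimum count 10, minimum total 15), scaled by TMM and tested with edgeR 4.0.16 (quasi-likelihood, no pairing term, prior count 0.125) in R 4.3.3, with Benjamini-Hochberg adjustment over 23628 genes. The common biological coefficient of variation was 13.4%. The script was tested on simulated data. SE is the coefficient over the square root of F, and log2 CPM used a prior count of 0.5. A count of 3 corresponds to 0.0428 to 0.053 CPM; precision beyond counting error rests on 3 libraries per group. Exon lengths and overlaps came from GENCODE M21 (GRCm38), which held 94.0% of the identifiers. Alternatives were DESeq2 1.42.0 and its size factors, total count scaling, limma-voom (limma 3.58.1), other filters, the replicate block, a Y-linked covariate and leaving out each library. The members and lists were chosen with earlier results of these data known; text genes were all members, called list genes, and the 5 genes most like the members. Emx1, Emx2, Fezf2, Pax6, Slc17a6, Slc17a7, Tle4, Reln, Elavl3, Map2 and the ganglionic eminence markers were named after their values were seen. So were the genes lowest in double knockout replicate 3. A few list genes, and ratios and sums that used them, are not reported here.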

Additional observations from a re-analysis of the deposited data

How the results depend on the processing

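Neurod2 was called lower in all 14 settings, and no member was called higher in any. With DESeq2 3 members were called lower and without a filter 2, where the main test called 1. Leaving out each library called 1 to 2, with 2 only without double knockout replicate 3. Of all genes tested, 2.62% were called lower with DESeq2 and 1.34% in the main test. Without a filter 414 of 37916 genes were called lower, and without double knockout replicate 3 358 of 24230. The cause of the differing counts was not tested. The replicate numbers were not shown to pair the libraries. Deviations of same-numbered libraries correlated by -0.0949, -0.00401 and -0.00699 over all tested genes. Over those with a mean of at least 1 CPM, leaving out Y-linked genes and Xist, they correlated by 0.129, 0.128 and 0.0978. Differently numbered libraries gave -0.106 to 0.115 and -0.217 to 0.0952, so the same-numbered values were the highest in the second set only. With the replicate block 1 member, Neurod2, was called (-0.53), 690 genes were called in all, and the log2 fold change of Nhlh2 reversed to -0.032; limma-voom also reversed it, to -0.055. Without each library in turn, Nhlh1 ranged from -0.32 to 0.11 and Nhlh2 from -0.21 to 0.28, on both sides of 0. DESeq2 called 1134 genes in all and the Y-linked covariate 358, against 634. Leaving out a library called 309 to 749, the most without double knockout replicate 3. Of the 49 pathway genes, 10 to 18 were called across settings, against 14. Dlx1 and Dlx2 stayed called in all. With 3 libraries per group, changes of the size seen for Neurog1 or Neurod4, at 4 to 9 CPM, were not resolved. Without double knockout replicate 3 they were still not called, with edgeR adjusted p of 0.301 and 0.199.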
